A study of Mus musculus with 3 samples.

Results

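C1q-negative myeloid cells are the cells of these mouse islets that carry RNA of general myeloid genes and no RNA of C1q, the complement protein typical of resident tissue macrophages. They were chosen by rule from 12308 cells with at least 500 genes, at least 1000 UMIs (unique molecular identifiers, each marking 1 captured RNA molecule) and at most 20% mitochondrial UMIs. A member had at least 2 of Tyrobp, Fcer1g, Laptm5 and Ctss above 0, no UMI of C1qa, C1qb or C1qc, fewer than 2 of the B cell genes Cd79a, Cd79b and Ms4a1, and hormone RNA under a limit. That limit was 3000 insulin UMIs and 200 UMIs each of Gcg, Sst and Ppy per 10000 UMIs of the cell. The rule found 116 members, of which 11 came from the 859 library 1 cells and 105 from the 11449 joint-table cells. The 4 myeloid genes, the 3 C1q genes, the B cell genes and the hormones chose the members, so their levels are a description.

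All samples belong to 1 group: islets of Ngn3-CreERT:R26-CAG-TdTomato mice 10 days after tamoxifen, taken apart with collagenase, a histopaque gradient and TypLE Express, and measured with 3-prime single-cell RNA sequencing. The Cre is driven from Ngn3 (Neurog3), so blood-derived cells are bystanders in this model, and no untreated, Cre-negative or sorted sample was analysed here. The labels give 6 mice and 3 samples, each of replicates 2 and 3 being a pool of 2 mice, and they give neither age nor strain. Replicate 1 is library 1, with 27474046 UMIs over 1146 cells, and replicates 2 and 3 share the joint table, with 196833349 UMIs over 13042 distinct cells. The joint table has 3 barcode blocks, which no label ties to a sample, so tests rest on 2 libraries and the blocks give values and directions only. Library 1 shared 5, 1 and 0 barcodes with the 3 blocks, and pairs of blocks shared 4 to 6.

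Myeloid cells arise in the bone marrow and in embryonic tissues. Neutrophils are short-lived granulocytes that reach tissue from blood, classical monocytes follow the chemokine receptor Ccr2 and can become macrophages, and dendritic cells take up antigen and show it to T cells on MHC class II proteins. Healthy mouse islets hold resident macrophages, which make C1q, together with a smaller number of dendritic cells. Tyrobp and Fcer1g encode adaptors that signal for many surface receptors of these cells, Laptm5 a lysosomal membrane protein, and Ctss a protease that prepares antigen for MHC class II.

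C1q-negative cells made up 1.28% of the cells of library 1 (exact Clopper-Pearson 95% interval 0.641% to 2.28%, counting error only). In the joint table they made up 0.917% (0.751% to 1.11%). Blocks 1, 2 and 3 held 53, 26 and 26 members, or 1.02%, 0.997% and 0.715% of their cells. The interval of library 1 thus contains the share of the joint table. C1q-positive myeloid cells, defined by the same rule with at least 2 of the 3 C1q genes, numbered 34 and 256, and 3 and 8 further cells had a UMI of exactly 1 C1q gene. C1q-negative cells were therefore 22.9% and 28.5% of all cells that met the rest of the rule.

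Tyrobp averaged 24.4 UMIs per 10000 (CP10K, the mean over cells) in the members of library 1 and 23.4 in those of the joint table, near the 20.5 and 25.4 of C1q-positive cells. Ctss averaged 15.2 and 12.1 CP10K, against 37.2 and 37.7. Fcer1g averaged 23.5 and 16.6 against 18.6 and 25.5, and Laptm5 8.03 and 8.99 against 12.9 and 11.4. Of the 4 genes, Ctss and Laptm5 were thus lower than in C1q-positive cells in both tables, and the other two were higher in library 1 and lower in the joint table. Of the joint table, 49 members had all 4 genes, 33 had 3 and 23 had 2. In library 1 these numbers were 7, 3 and 1. Just outside that limit, 6 and 54 cells of these tables had 1 of the 4 genes and met the rest of the rule.

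Fcer1g is the least selective of the 4, since it was detected in 21% (library 1) and 13.9% (joint table) of insulin-rich cells, at medians of 40509 and 20292 UMIs per cell. Tyrobp was found in 0.823% and 0.866% of these cells. Without Fcer1g, 10 of 11 members and 87 of 105 still had at least 2 of the other 3 genes.

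Depth can hide C1q, and members were shallower than C1q-positive cells. Median UMIs were 2551 (library 1) and 2261 (joint table), against 6954 and 3481 in C1q-positive cells. C1q-positive cells had a median of 71.5 and 39 UMIs over the 3 C1q genes. These cells were thinned to 1000 UMIs, the lowest depth the rule accepts. Then 2 of 34 (5.88%, exact interval 0.720% to 19.7%) and 4 of 256 (1.56%) lost all C1q UMIs. They had been chosen for at least 2 C1q genes, so the loss cannot tell how many members had C1q RNA that was missed. Just outside the limit on C1q, 2 and 6 cells had 1 C1q UMI and were not members. As the plot of C1q against depth shows, the deepest members, without a C1q UMI, had 19022 (library 1) and 10099 UMIs (joint table).

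**Figure D1:**
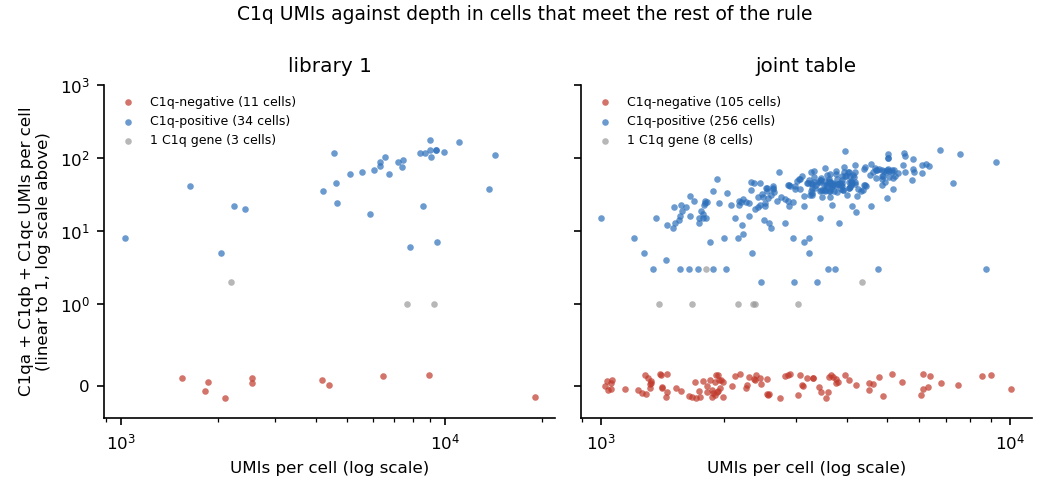
C1q UMIs (C1qa, C1qb and C1qc summed, linear to 1 and logarithmic above) against total UMIs per cell (log scale) for cells that meet the rest of the rule, in library 1 and the joint table; points at 0 are spread vertically so that they can be seen. By the rule, the 11 and 105 members lie at 0 and the 34 and 256 C1q-positive cells above 0. With 1, 2 and 3 C1q UMIs there were 2, 1 and 0 cells in library 1. In the joint table these numbers were 6, 4 and 11.

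The 105 members of the joint table were clustered alone, with the genes of the rule kept out, and fell into 4 sub-clusters of 19, 38, 23 and 25 cells. All 4 had cells from all 3 blocks: 11, 4 and 4 in the first, 21, 9 and 8 in the second, 8, 5 and 10 in the third, and 13, 8 and 4 in the fourth. Because the clustering used these cells' genes, the levels below describe the sub-clusters and were not tested. Names were given only where the 10 leading genes held at least 3 markers of a listed cell type.

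The third sub-cluster was neutrophil-like, with S100a8, S100a9 and Lcn2 among its leading genes. S100a8 and S100a9 encode the 2 chains of calprotectin, an abundant protein of the neutrophil cytosol that binds metal ions. S100a9 averaged 576, 657 and 404 CP10K in the neutrophil-like cells of blocks 1, 2 and 3, and S100a8 averaged 582, 574 and 356. All 23 cells had both transcripts and 0 of the other 82 members did. The 2 transcripts together reached 148 to 2276 CP10K, with a median of 885, and at most 5.14 CP10K in any other member. Only the genes of the rule were kept out of the clustering, so this gap describes the sub-cluster and was not tested.

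These genes are neighbours on mouse chromosome 3 (GENCODE M21, mm10), S100a8 at 90668978 to 90670035 on the plus strand and S100a9 at 90692632 to 90695721 on the minus strand. Their promoters, from 250 bases before to 50 bases after the RefSeq start (GRCm38.p6), are shown because the 2 transcripts appeared in the same 23 cells. Capitals mark matches on either strand to TTNNGNAA, the core of the motif bound by C/EBP proteins, transcription factors known from granulocytes. That motif occurs in 40.7% of the 32851 promoters of this length in the table, so a match is common. S100a8 has 1 match and S100a9 has 2, which do not overlap. The PU.1-type motif GAGGAAG, found in 13.6% of promoters, occurs 1 time in S100a8 and 0 times in S100a9.
S100a8, plus strand, chr3:90668821-90669120: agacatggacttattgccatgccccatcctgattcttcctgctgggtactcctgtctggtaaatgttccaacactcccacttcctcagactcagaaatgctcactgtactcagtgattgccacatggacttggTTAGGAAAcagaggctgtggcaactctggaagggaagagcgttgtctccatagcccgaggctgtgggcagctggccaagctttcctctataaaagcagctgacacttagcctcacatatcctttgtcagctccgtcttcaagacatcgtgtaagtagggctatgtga
S100a9, minus strand, chr3:90695672-90695971: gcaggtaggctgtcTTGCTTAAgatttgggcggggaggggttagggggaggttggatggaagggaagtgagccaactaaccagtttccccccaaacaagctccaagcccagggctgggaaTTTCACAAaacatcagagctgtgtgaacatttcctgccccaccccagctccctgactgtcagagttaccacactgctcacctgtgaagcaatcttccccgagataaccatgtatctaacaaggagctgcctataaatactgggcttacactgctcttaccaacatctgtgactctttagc

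Slpi, a secreted protease inhibitor, averaged 56.1 CP10K in neutrophil-like cells and 1.40 in the other members. G0s2, an inhibitor of lipid breakdown, averaged 31.3 CP10K and had no UMI in the other 82. Il1f9, an interleukin-1 family cytokine, averaged 20.5 and was likewise at 0 elsewhere. Hdc, the enzyme that makes histamine, averaged 16.8 CP10K in neutrophil-like cells and 0.14 in the other members. Hdc is listed with mast cells and basophils. Of the other genes of that list, Cpa3, Mcpt4, Cma1, Tpsb2, Ms4a2, Fcer1a, Gata2 and Mcpt8 were at 0 in all 105 members. Kit, also listed, was detected in the fourth sub-cluster, and no joint-table member had more than 1 marker of the list.

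The chemokine gene Cxcl2, whose product attracts neutrophils, had a UMI in 95.7% of neutrophil-like cells at 142 CP10K. Il1b, the inflammatory cytokine interleukin-1 beta, had one in 82.6% at 68.2 CP10K. Retnlg (43.5% of cells), Csf3r (60.9%), Cxcr2 (34.8%) and Ly6g (3 of 23 cells), genes of mature neutrophils, were found as well. Ngp and Camp, granule genes of immature neutrophils, had no UMI in any joint-table member. MHC class II genes, summed over the list, were at 0 in 19 of the 23 cells. Neutrophil-like cells were also the smallest by RNA content, with a median of 1754 UMIs and 565 genes, 0.303% mitochondrial UMIs and 2105 CP10K of insulin. The other sub-clusters had medians of 1921 to 4526 UMIs, 2.85% to 3.73% mitochondrial UMIs and 782 to 1246 CP10K of insulin.

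The first sub-cluster was classical monocyte-like, with Plac8, Ccr2 and Ly6c2 among its leading genes. Ccr2, the receptor that guides classical monocytes into tissue, had a UMI in 18 of its 19 cells and averaged 18.2, 28.4 and 13.8 CP10K in the 3 blocks. Plac8, a myeloid gene of little known function, averaged 26.2, 23.4 and 15.1 CP10K. Ly6c2, the surface antigen by which mouse classical monocytes are sorted, averaged 4.20, 11.3 and 0.632. All 3 genes were thus found in all 3 blocks, with Ly6c2 in 1 cell of block 3. The leading genes also held Ms4a4c, Ms4a6b, Thbs1, Ifitm6 and Rreb1, and 2 genes listed with macrophages, Apoe and Fcgr1. Apoe, the lipid carrier that islet macrophages make in quantity, averaged 14.9 CP10K here, against 226 in C1q-positive cells of the same table. Lyz2, lysozyme of macrophages and granulocytes, was found in all 19 cells at 79.8 CP10K. At least 3 classical monocyte markers were found in all 19 cells, and at least 3 macrophage markers outside C1q in 16. The classical monocyte list summed to a mean of 102 CP10K in these cells. It summed to 120 in the second sub-cluster, where 16 of 38 cells had at least 3 of its markers.

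The second and largest sub-cluster took no name, since 1 of its 10 leading genes, Fn1, was a marker of the listed monocytes and 1, Anxa3, of mature dendritic cells. Fn1, the matrix protein fibronectin, was found in 37 of its 38 cells and averaged 95.8, 84.5 and 133 CP10K in the 3 blocks. Lpl, lipoprotein lipase, which frees fatty acids from circulating fat, averaged 36.8, 27.9 and 20.1 CP10K. Cd36, a fatty acid and lipoprotein receptor, averaged 8.84 CP10K and Abca1, a cholesterol exporter, 5.0. Genes of lipid handling were therefore among the leading genes together with Mmp12, a macrophage elastase found in 6 of 38 cells. Others were Igf1, the growth factor (14 of 38 cells, 0 of the other 67 members), and the chemokines Ccl9 (34 cells) and Ccl24 (12 cells). Monocyte and macrophage receptors were both present. Ccr2 was found in 44.7% of them, Cx3cr1, the fractalkine receptor, in 19 of 38, Csf1r, the macrophage growth factor receptor, in 57.9%, and Adgre1, which encodes F4/80, in 15.8%.

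The fourth sub-cluster was led by Ccl5, Ly6d, H2-Eb1, Cst3, Rnase6, Xist, AW112010, Ccr9, Lgals1 and Siglech. It took no name, since no listed cell type had 3 markers among these genes, and its cells differed among themselves. Cst3, a protease inhibitor abundant in dendritic cells, averaged 87.2, 102 and 81.2 CP10K in the 3 blocks, and H2-Eb1, a chain of MHC class II, averaged 46.4, 55.1 and 59.6. The cells were therefore read singly against the marker lists, with at least 4 markers of a list required, a number chosen after the counts were seen. By that count 7 cells matched the list of conventional dendritic cells 1, which present antigen of dead cells to CD8 T cells, with 5 to 10 of 10 markers such as Xcr1 and Clec9a. The list of conventional dendritic cells 2, which mainly prime CD4 T cells, was met by 5 cells with 4 to 6 of 8 markers such as Cd209a. Plasmacytoid dendritic cells, known for type I interferon, were matched by 4 cells with 4 to 6 of 6 markers.

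Mature migratory dendritic cells were matched by 1 cell of the fourth sub-cluster with 7 of 12 markers. Natural killer (NK) cells were matched by 2 cells with 8 to 10 of 11 markers, Gzma among them, and innate lymphoid cells by 1 cell with 5 of 8. These lymphoid cells also use Tyrobp or Fcer1g as adaptors. No cell matched 2 of these lists, and 5 of the 25 cells matched none, of which 3 had 4 of the 6 markers of the shared dendritic cell list. Beyond these lists, 1 plasmacytoid match also had 4 classical monocyte markers, and 1 conventional 2 match had 4 macrophage markers. With at least 3 markers the counts were 10, 7, 4, 2, 2 and 1, in the order conventional 1, conventional 2, plasmacytoid, mature, NK and innate lymphoid. The Ccl5 that leads this sub-cluster came from 5 cells, at 1.80, 26.7 and 29.2 CP10K in the 3 blocks, and Siglech and Ccr9 from 5 and 4 cells. Of Mki67 and Top2a, from the 14 listed cell cycle genes, UMIs were found in 4 and 5 of the 25 cells, and in 0 and 1 of the other 80 members. The fourth sub-cluster was also the deepest, with a median of 4526 UMIs against 1754 to 3070 in the others.

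**Figure D2:**
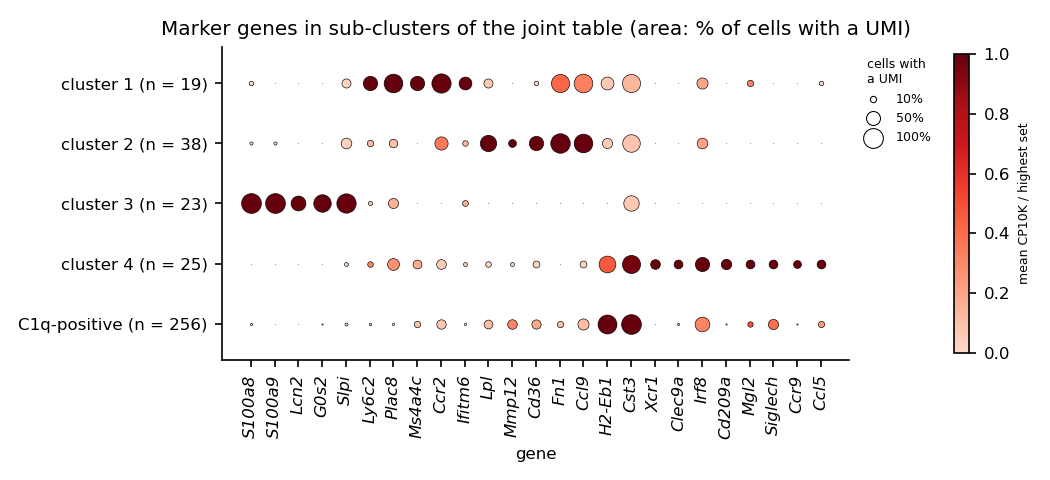
Marker genes (x axis) in the 4 sub-clusters of the joint table's members and in its C1q-positive cells (y axis); dot area is the percentage of cells with a UMI and colour the mean CP10K divided by that of the highest set for the gene. S100a8 and S100a9 fill all 23 cells of cluster 3, Ccr2 18 of 19 cells of cluster 1, Fn1 37 of 38 cells of cluster 2, and Xcr1, Cd209a, Siglech and Ccr9 are found in 4 to 7 of the 25 cells of cluster 4.

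The 10 genes of the list (H2-Aa, H2-Ab1, H2-Eb1, the loading factors H2-DMa, H2-DMb1 and H2-DMb2, H2-Oa, H2-Ob, the invariant chain Cd74 and the regulator Ciita) summed to a median of 48.2 CP10K in the monocyte-like cells and 23.7 in the Lpl- and Fn1-rich cells. The median was 0 in neutrophil-like cells and 289 in the fourth sub-cluster, against 611 in C1q-positive cells. Within the fourth sub-cluster the cells matched to conventional dendritic cells 1 had 284 to 484 CP10K and those matched to conventional dendritic cells 2 had 383 to 700. The cells matched to plasmacytoid dendritic cells had 5.22 to 43.0, and the NK-matched and innate lymphoid-matched cells had 0. All 12 conventional dendritic cell matches lay below the median of C1q-positive cells but for 1.

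**Figure D3:**
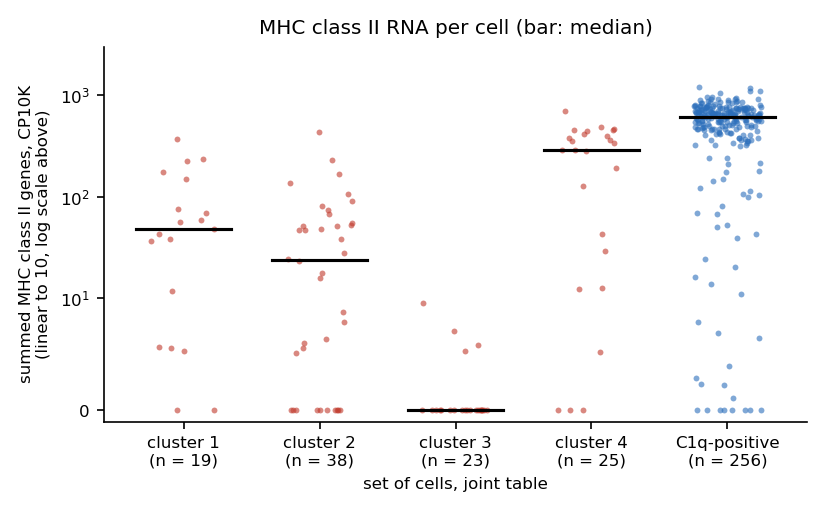
Summed MHC class II genes per cell (CP10K, linear to 10 and logarithmic above) in the sub-clusters of the joint table's members and in its C1q-positive cells; each point is 1 cell and the bar is the median. The medians are 48.2, 23.7, 0, 289 and 611.

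The 11 members of library 1 were too few to cluster and were read singly. Against the neutrophil list, 3 cells had 4, 7 and 5 of the 7 markers that this table lists, and 0 of 34 C1q-positive cells had 3 or more. Another cell had 8 of 8 markers of non-classical monocytes, which patrol vessel walls, and 2 others had 5 and 7 of 8 classical monocyte markers. These 3 cells also had 7, 8 and 7 of the 17 listed macrophage markers outside C1q. Of the remaining cells, 4 had 5 to 8 of the macrophage markers and at most 3 classical monocyte markers, so 7 of 11 cells carried at least 5. The deepest cell, with 19022 UMIs, had 6 of 8 fibroblast and mural markers, which no other member of either table approached (at most 1). Another cell, of 2540 UMIs, had no neutrophil and no macrophage marker and 2 of the 3 listed mast cell and basophil markers, with 6 UMIs of Hdc and 1 of Gata2. The table of library 1 lists 1 NK marker and lacks rows for Flt3, Xcr1, Clec9a, Cd209a and Ccr7, so dendritic and NK cells of the kinds above could not be looked for in the same way. There were 3 joint-table members with at least 4 non-classical monocyte markers, all from block 1.

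**Figure D4:**
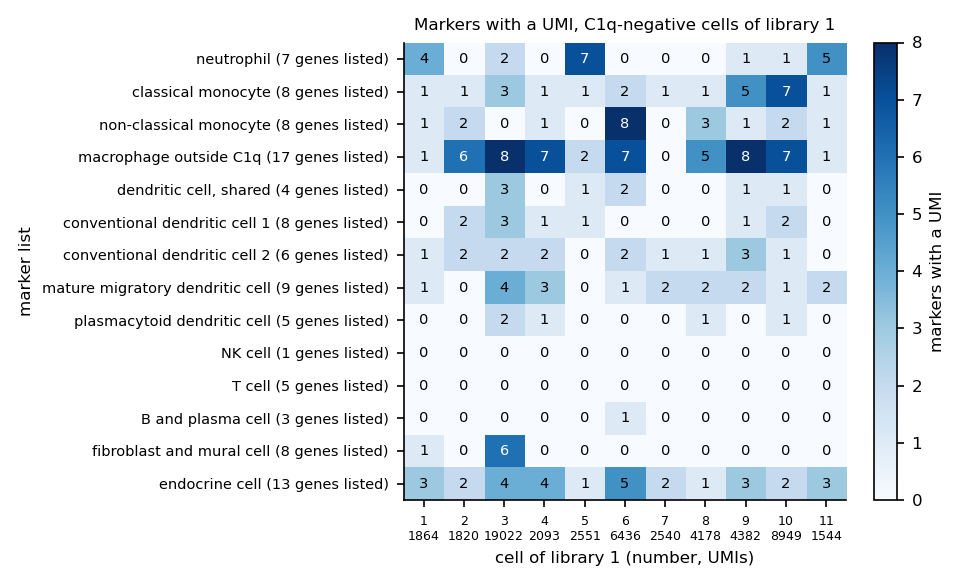
Number of markers with a UMI (cell text and colour) for 14 marker lists (rows, with the number of genes of the list that the table holds) in each of the 11 members of library 1 (columns, with UMIs per cell). Cells 1, 5 and 11 have 4, 7 and 5 neutrophil markers, cell 6 has 8 non-classical monocyte markers, and cell 3 has 6 fibroblast and mural markers.

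Endocrine and acinar RNA was found in members of both tables. In the joint table the 6 platelet and erythroid, 6 endothelial, 8 fibroblast and mural, 4 Schwann and 5 duct genes gave at most 1 marker per cell, and the mean summed level of each list was at most 0.340 CP10K. Of the 9 listed T cell genes, Cd3d, Cd3g and Trac were at 0 in members of both tables, as was Cd3e in the joint table. Another 3 of the list were detected in the fourth sub-cluster, at most 2 in a cell, with a mean summed level of 0.724 CP10K. Endocrine RNA was present in all members, with median insulin of 220 CP10K (library 1) and 1071 CP10K (joint table), beside the 128 and 953 of C1q-positive cells. The 7 acinar genes summed to a mean of 18.3 CP10K in joint-table members, with 97 of 105 cells having at least 1 of them, beside 19.0 CP10K in C1q-positive cells. In library 1 these means were 2.03 and 1.06 CP10K. The part of this RNA in the results was not tested. In library 1 the fibroblast and mural genes averaged 23.4 CP10K in members, against 0.0310 in C1q-positive cells, and the cell described above had 252 CP10K. Among the cells with the highest Scrublet doublet scores were 0 members of library 1, and 6 joint-table members.

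C1q-negative cells were then compared with C1q-positive cells of the same libraries, the myeloid cells that share their markers. MHC class II and macrophage genes were among the lower genes in C1q-negative cells. The direction of all 5 neutrophil genes and 4 of 7 classical monocyte genes tested was fixed by the filter on low values, described below. Of the other classical monocyte genes, 2 were higher and 1 lower. Of 2781 genes tested outside the rule, 476 (17.1%) passed limma's test with the library as a block (Benjamini-Hochberg adjusted p under 0.05). They were 201 higher (7.23%) and 275 lower (9.89%) in C1q-negative cells, and 443 (15.9%) were called with 1 direction in both tables and all 3 blocks. A gene had to reach 0.5 CP10K in 2 of the 4 columns, so a gene under that level in both columns of 1 set was tested only where the other set was higher, and its direction was fixed by the filter. That holds for 225 genes tested through the members alone (77 called) and 155 through C1q-positive cells alone (92 called). Of the other 2401 genes, 124 were higher and 183 lower. Without centring the columns on their medians, which shifted the median difference of all genes from -0.067 to 0.097, the split was 172 higher and 116 lower. The fit has 1 residual degree of freedom, so SEs and p-values rest on variance shared over genes more than on how far apart a gene's 2 tables lie. Without the block 121 genes passed, and DESeq2 on summed UMIs called 91, all among the 476. A difference is a mean over mixed cells: a higher share of neutrophils and more RNA per cell cannot be told apart in it.

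Values are log2 differences on the scale log2(mean CP10K + 0.5), with the SE, unless named as levels. S100a9 averaged 79.3 CP10K in the members of library 1 and 114 in those of the joint table, and had no UMI in C1q-positive cells of either. The mean was thus far higher in members in both tables. From summed UMIs and against 3 counts per library, it was at least 283-fold and 2233-fold higher. S100a8 averaged 56.7 and 106 CP10K against 0.224 and 0.0225, a log2 difference of 6.82 (SE 0.31), tested through the members alone. Ifitm1, an interferon-induced membrane protein, and Il1f9 were also at 0 in C1q-positive cells and were at least 106.5-fold and 99.0-fold higher, and at least 12.8-fold and 82.1-fold higher, in the 2 tables.

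Of the 15 largest rises 12, all but Clec4e, S100a6 and S100a11, were tested through the members alone. Of the 10 largest falls 3, Ms4a7, Ccl8 and Pmepa1, were tested through C1q-positive cells alone. The direction of these genes was fixed by the filter, so they are given as values. Further genes with the largest rises were also highest in the neutrophil-like sub-cluster. Slpi differed by 4.28 (SE 0.35), G0s2 by 3.64, Acod1, the enzyme that makes itaconate, by 2.96, and Slc7a11, a cystine importer, by 2.86. Clec4e, a receptor for fungal and mycobacterial glycolipids, rose by 2.86 (10.9 CP10K against 0.715 in the joint table). Il1rn, the interleukin-1 receptor antagonist, differed by 2.86, with 22.7 CP10K in neutrophil-like and 8.88 in Lpl- and Fn1-rich cells. The calcium-binding S100a6 and S100a11 rose by 2.90 and 2.86. Chil1, a chitinase-like protein, differed by 3.16 and Ltb, lymphotoxin beta, by 2.92.

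Plac8, whose direction the filter fixed, stands apart among the largest rises. Its level was highest in the monocyte-like cells (23.3 CP10K) rather than the neutrophil-like ones (3.64). It averaged 18.3 and 7.34 CP10K in members against 0.360 and 0.184 in C1q-positive cells, a difference of 3.82 (SE 0.35).

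Apoe had the largest fall, by 5.35 (SE 0.20, adjusted p = 2.4e-131). It averaged 5.91 and 5.02 CP10K in members and 207 and 226 in C1q-positive cells. Apoe lies on chromosome 7 at 19696109 to 19699188. Cd81, a tetraspanin, fell by 3.43 and Selenop, a selenium carrier, by 3.18. Ms4a7, a membrane protein of macrophages, differed by -4.67 and Pmepa1, an inhibitor of TGF-beta signalling, by -3.36. Ccl8, a monocyte-attracting chemokine, had no UMI in any member. It was at least 25.7-fold and 31.0-fold lower than in C1q-positive cells.

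**Figure D5:**
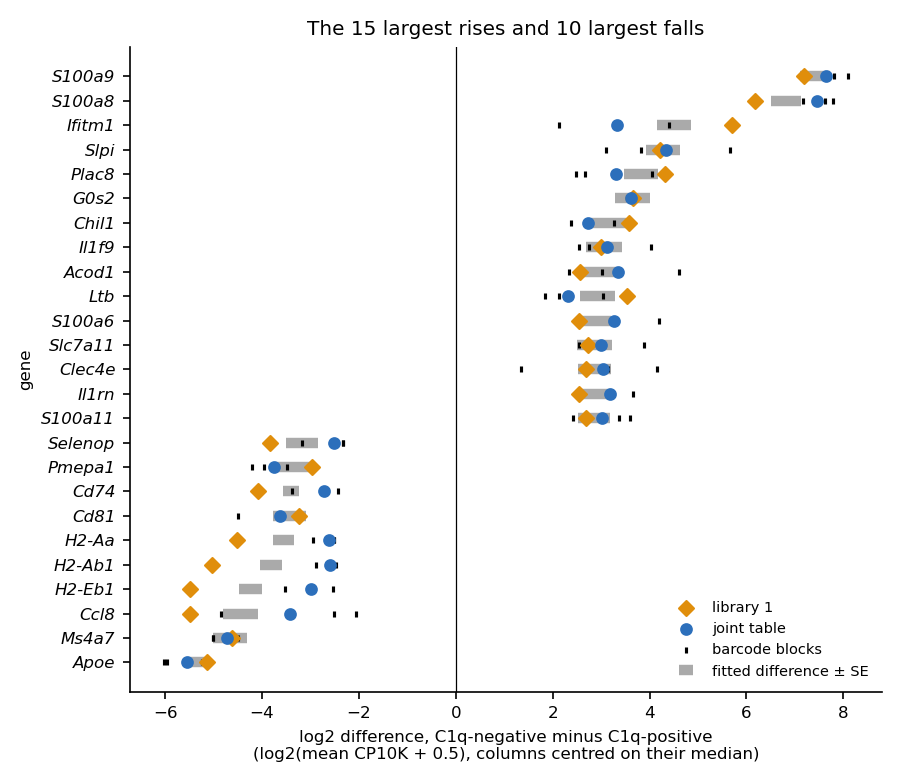
Log2 difference between C1q-negative and C1q-positive cells (x axis) for the 15 largest rises and 10 largest falls (y axis); diamonds are library 1, circles the joint table, ticks its 3 barcode blocks, and grey bars the fitted difference ± SE. Genes were chosen to have 1 direction in all tables and blocks, and library 1 shows larger falls than the joint table for H2-Eb1, H2-Ab1, H2-Aa and Cd74.

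Against these backgrounds of 7.23% higher and 9.89% lower calls, the gene lists moved as follows, each given by the genes that passed the filter on low values. Where a count is limited to genes that reached the filter level in both sets, the background is 124 higher and 183 lower of 2401. MHC class II presentation was lower in 7 of 7 genes tested of 10 (median -3.40, against -0.067 for all genes), 6 of which reached the filter level in both sets of cells. Cd74 averaged 10.8 and 38.1 CP10K in members against 175 and 222, a difference of -3.40 (SE 0.17). H2-Eb1 averaged 1.42 and 15.5 against 78.2 and 111, a difference of -4.24. H2-Aa and H2-Ab1, which lie beside it on chromosome 17, fell by 3.56 and 3.81, and the loading factors H2-DMa and H2-DMb1 by 1.46 and 1.82. H2-Eb1 differed by -5.48 (library 1) and -3.00 (joint table). MHC class I presentation, which all nucleated cells use, had 0 of 8 genes past the threshold at a median of -0.11, with B2m at -0.53 and H2-D1 at 0.43.

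Macrophage markers outside C1q were lower in 13 of 15 genes tested of 18, higher in 1, at a median of -1.70. Of the 10 that reached the filter level in both sets, 8 were lower. Lgmn, a lysosomal protease, fell by 1.96, Csf1r by 1.49 and Cx3cr1 by 1.34. Cd14, a co-receptor for bacterial lipopolysaccharide that neutrophils also carry, rose by 1.12. Folr2 and Fcrls had no UMI in members of either table. Lysosome genes were lower in 8 of 15 and higher in 0 (median -0.92), with Cst3 down by 1.99. Ctsb and Ctsd, 2 main cathepsins, did not pass the threshold at -0.40 and 0.42, and Lyz2 stood at 0.03. The Lyz2 level was 65.9 CP10K in members of library 1 and 73.2 in its C1q-positive cells. In the joint table these levels were 36.8 and 25.1.

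All 5 neutrophil genes tested of 11 (S100a8, S100a9, Csf3r, Cxcr2 and Il1r2) were tested through the members alone, so their direction was fixed by the filter and they are given as values. Csf3r, the receptor for G-CSF, differed by 2.44 and Il1r2, a decoy receptor for interleukin-1, by 1.5. Hdc, tested in the same way, differed by 2.65. Of the 7 classical monocyte genes tested of 9, the same holds for Plac8, Hp, haptoglobin (2.45), Ly6c2 (1.73) and Chil3, a chitinase-like protein (1.30). Of the other 3, Fn1 rose by 1.73. Ccr2 rose by 0.95 (adjusted p = 0.037, limma), a call that 8 of 14 alternatives ended. F13a1, a coagulation factor, fell by 1.39. Of the non-classical list, 2 of 8 genes were tested: Itgal rose by 1.47, and Ear2, tested through the members alone, differed by 1.48.

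Signalling genes moved in both directions. Of chemokine ligands, 3 of 13 tested were higher and 4 lower, 2 of the latter tested through C1q-positive cells alone. Cxcl2 rose by 1.96 (37.3 CP10K in members of the joint table against 5.66) and Ccl9 by 1.09, whereas Cxcl16 fell by 2.31. Ccl4 did not pass and went in opposite directions, 1.07 (library 1) and -2.21 (joint table), and Ccl6 stood at 0.67. Ccl5 passed at -2.08 but was -2.75, 1.38 and 1.60 in the 3 blocks. Of chemokine receptors, 3 of 5 were higher and 1 lower, with Cxcr4, the receptor that holds cells in bone marrow, up by 1.46 and Ccr1, tested through the members alone, at 1.55. Cytokines were higher in 3 of 10, 1 of them (Il1rn) tested through the members alone, and lower in 1, with Il1b up by 1.67. Pattern recognition genes were higher in 4 of 7 and lower in 0 (median 0.99), with Clec4d, a lectin expressed with Clec4e, up by 2.65.

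Complement genes other than C1q were higher in 2 of 7 and lower in 3. C3, the central component, tested through the members alone, differed by 2.26, and Itgam, the alpha chain of its receptor CR3, rose by 1.03. C3ar1, the receptor for the C3a fragment, fell by 1.80 and Itgax, the CR4 alpha chain, by 1.23. Fc receptors and ITAM partners were lower in 3 of the 7 that reached the filter level in both sets and higher in 0, with Trem2, a lipid-sensing receptor of macrophages, down by 1.13. Lipid handling genes were higher in 2 of 8 and lower in 2: Lpl rose by 1.78 and Cd36 by 0.93 (adjusted p = 0.032, limma, lost in 11 of 14 alternatives), while Apoe and Trem2 fell.

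Interferon response genes were lower in 2 of 6 tested of 10, with Bst2 down by 1.62. Of dendritic cell genes that reached the filter level in both sets, 1 of 1 was lower in the shared list, 0 of 3 passed in the conventional 1 list, 1 of 3 was higher in the conventional 2 list, 0 of 2 passed in the mature list, and 1 of 2 was lower in the plasmacytoid list. Cadm1, tested through C1q-positive cells alone, stood at -2.06. Siglech fell by 1.20 and had a UMI in 27.0% of C1q-positive cells. Irf8 stood at -0.84 and did not pass. Costimulation genes were lower in 1 of 2 tested. The 12 dissociation response genes were lower in 7 and higher in 1 (median -0.80), with Fos down by 1.19, Egr1 by 1.76 and Atf3 by 1.69. The NK list had 1 of 1 lower (Ccl5), and 1 gene each of the mast cell and basophil list (Hdc) and the B cell list was tested through 1 set alone. The endocrine and acinar lists had 0 of 6 and 0 of 6 past the threshold. Of 14 cell cycle genes 1 was tested and did not pass.

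Neurog3, whose driver the mice carry, had no UMI in the 11 and 105 members or in C1q-positive cells, which allows up to 0.542 CP10K in library 1 members and 0.0996 in those of the joint table (3 counts of their UMIs). The row named TdTomato had no UMI in the members of library 1. In the joint table it had one in 23 of 105 members (21.9%, exact interval 14.4% to 31.0%), at 1.48 CP10K, against 25 of 256 C1q-positive cells (9.77%) at 0.356 CP10K. Blocks 1, 2 and 3 gave 10, 5 and 8 such members. Insulin-rich cells gave 38.0% at 0.25 CP10K and a median of 20292 UMIs. The joint table has no row for Gt(ROSA)26Sor, the gene at the reporter's locus, which in library 1 averaged 2.74 CP10K in members, 0.738 in C1q-positive and 0.318 in insulin-rich cells. The joint row therefore could not be read as the reporter alone.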

How the data were processed

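Single-cell 3-prime RNA libraries of islets were deposited as 2 tables. The table of replicate 1 holds raw UMI counts per gene and cell as deposited, made with Cell Ranger 3.2.0 per the submitters' processing notes. The table of replicates 2 and 3 was deposited as natural log values, ln(1 + 10000 × count / total), made with Cell Ranger 5.0.0 and Seurat 4.0.0. Both used cutadapt 2.5, FastQC 0.11.8 and mm10 per the same notes. Whole counts were recovered from 100% of the 35558086 nonzero values (tolerance 0.001), and 3008 columns that copy others were dropped.

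The members and gene lists were chosen with earlier results of these data known. Cell means of CP10K were compared with limma 3.58.1 in R 4.3.3 on log2(mean + 0.5), with the library as a block and columns centred on their medians. Genes needed at least 0.5 CP10K in at least 2 of 4 columns, and the genes of the rule were left out. Named genes are the 15 largest rises and 10 largest falls that passed with 1 direction in both tables and all blocks, plus members of the lists. edgeR 4.0.16 and DESeq2 1.42.0 were alternatives on summed UMIs. Members of the joint table were clustered with scanpy 1.11.5 (1000 variable genes, 15 components, Leiden resolution 1). Doublets were kept, since Scrublet's automatic cut marked 9 and 36 cells, too few for a working call, and the highest scores were left out as an alternative. The test was checked on simulated data of 2768 genes. There it called 45 of 50 genes raised by 2 on the log2 scale and 25 of 49 lowered by 2. It also called 4 of 50 raised by 1, 3 of 49 lowered by 1, and 1 of 2570 unchanged. The simulated columns were summed counts with a shared baseline, a fixed dispersion and no library effect or mix of cell types. These rates therefore need not hold for the real columns. The result of a tested gene is not reported here.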

Additional observations from a re-analysis of the deposited data

How the results depend on the processing

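Of 73 tested genes named above, 65 passed the threshold, and 33 of these kept their call under each of the 14 alternatives that tested them, while 32 lost it under at least 1. The number of genes past the threshold was 121 without the replicate block (59 higher, 62 lower), 288 without centring and 91 with DESeq2; the cause was not tested. Under the other alternatives it was 318 to 448. The 448 came from an alternative chosen after seeing the data, without the cell that carries fibroblast and mural genes. Leaving out cells with at least 2 NK or T cell genes, among them 5 joint-table members, gave 345. Without the filter on low values, 347 of 9890 genes passed, 213 of them higher. The single tables allow no test, and the comparison in cells with at least 3000 UMIs was not run, since library 1 has 5 such members. Lyz2, which was not called, turned to -0.0435 with a pseudocount of 0.05 and to -0.0062 when C1q-positive meant at least 1 C1q gene. With 1 table left out, differences ranged from -2.21 to 1.07 for Ccl4, -0.32 to 1.17 for Ctsd, -0.27 to 0.34 for Lyz2 and -0.0588 to 0.93 for H2-D1. The share of members with at least 3000 UMIs among such cells was 0.613% (library 1) and 0.362% (joint table), and with at least 3 of 4 markers the joint share was 0.716%. At Leiden resolution 0.5 the monocyte-like and the Lpl- and Fn1-rich cells formed 1 sub-cluster of 57. At resolution 1.5 the best match of the Lpl- and Fn1-rich cells held 24 and that of the neutrophil-like cells 14. With 10 principal components the best match of the monocyte-like cells had 18 cells and shared 11 of their 19, and that of the fourth sub-cluster had 33. With 11 members, library 1 limits what either table can be checked against.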

Other observations

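Xist, the RNA that silences an X chromosome in female cells, was at 0.398 CP10K in sub-clusters 1 to 3 (5 of 80 cells, 6.25%) and at 7.01 CP10K in the fourth (16 of 25 cells, 64%). C1q-positive cells of the same table had 5.95 CP10K (156 of 256 cells, 60.9%). The Y-linked genes Ddx3y, Eif2s3y, Kdm5d and Uty had a UMI in 17 of 80 cells (21.3%), 4 of 25 cells and 25 of 256 cells (9.77%). No member had both. After thinning to 1000 UMIs the Xist shares were 3.75%, 44% and 39.1%, and those of the Y-linked genes 11.3%, 8% and 3.91%. Xist is a leading gene of the fourth sub-cluster, so the clustering used it, and the labels give the sex of no mouse.

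C1qa had a UMI in 54.7% of insulin-rich cells of library 1 and 25.9% of those of the joint table, whereas C1qb did in 0.823% and 0.722% and C1qc in 0.412% and 0.591%.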
